A study of Mus musculus with 4 samples.

Results

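Aminoacyl-tRNA synthetase genes were examined in mouse hearts at P7 by RNA-seq. The members are the autosomal protein-coding genes whose symbol names an aminoacyl-tRNA synthetase, such as *Dars*, *Farsb*, *Eprs* or *Vars2*, and they are 37 of the 24454 genes in the table of counts. By textbook localization, 18 encode cytosolic enzymes, 17 encode mitochondrial enzymes, and *Gars* and *Kars* each encode the enzyme of both compartments. The hearts came from 2 groups of mice on the C57BL/6 background, with 2 libraries in each, and read counts per gene were deposited for every library. MiR-128OE hearts (WH9 and WH10) carried *α-MHC*-tTA and *miR-128*TetRE, a pair that switches on miR-128 when doxycycline is withheld. The doxycycline schedule of these hearts is not given in the sources used here. The *α-MHC* promoter drives tTA in cardiomyocytes, while the libraries were made from whole hearts. Ctrl hearts (WH7 and WH8) were of the same age. In its other experiments with this line, the study names *miR-128*TetRE mice, which lack tTA, as controls. If the sequenced Ctrl hearts were of that genotype, they control for that allele but not for tTA itself. The labels give each library only as Ctrl or miR-128OE and do not say whether the libraries of a group came from separate mice, so that p-values measure the spread between these libraries, which may be technical.

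Aminoacyl-tRNA synthetases join each amino acid to its own tRNAs and thereby set how codons are read. The cytosolic enzymes serve the ribosomes of the cytosol, and several of them are held together in the multisynthetase complex. The mitochondrial enzymes are encoded in the nucleus and imported, and they charge the tRNAs used to make the respiratory chain subunits that mitochondrial DNA encodes. Cardiac muscle depends heavily on these subunits, and inherited defects in several of the mitochondrial enzymes are known to cause cardiomyopathy.

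Depth differed between libraries, with totals of 12385863 and 8096870 counts for the Ctrl hearts against 12440553 and 14359838 for the miR-128OE hearts. The precursor gene *Mir128-1* was at 0 counts throughout, while *Mir128-2* was at 0 in both Ctrl libraries and at 2 and 10 in the miR-128OE libraries, so that this table gives little check of the overexpression. *Xist* had 11339 to 14543 counts in Ctrl and 94 to 132 in miR-128OE libraries, and the Y-linked *Ddx3y* had 7 to 13 and 1442 to 1768. The condition and the sex of the mice therefore cannot be told apart for any gene below. The nuclear RNA *Malat1* took 2.33% to 2.35% of all counts in Ctrl and 0.739% to 0.883% in miR-128OE libraries. The summed CPM of 6 cardiomyocyte markers was 32768 and 33286 in Ctrl and 45290 and 43774 in miR-128OE hearts, with 3 markers higher and 1 lower. The 4 brown fat markers summed to 33.1 and 33.3 against 71.3 and 54.2 CPM with 3 higher, and the 4 blood markers to 47.9 and 37.7 against 78.0 and 71.3 CPM, with *Hba-a1* and *Hbb-bs* at 0 in every library. The 5 smooth muscle and pericyte markers summed to 1655 and 1592 against 2145 and 2376 CPM, and the 3 Schwann cell markers to 36.2 and 38.5 against 23.5 and 24.6 CPM. Ranges were 1127 to 1135 against 1236 to 1344 CPM for the 5 endothelial markers, 3525 to 5433 against 4218 to 4733 CPM for the 5 fibroblast markers, and 57.7 to 81.0 against 64.4 to 64.7 CPM for the 5 macrophage markers. The part of these differences in the results below was not tested, and in whole hearts fewer cells of a type and less RNA per cell cannot be told apart.

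The mature miR-128-3p is shown first because a complementary site in a 3′UTR is how a miRNA is known to reach its target. Its sequence is from RefSeq, with bases 2 to 8, the seed, in capitals.
miR-128-3p: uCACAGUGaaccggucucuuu
Sites for this seed were searched as CACTGTG (7mer-m8) and ACTGTGA (7mer-A1), an 8mer holding both, on the sense strand. The sequence searched was the longest 3′UTR among the protein-coding transcripts of each gene in GENCODE M21 (GRCm38, the same assembly as mm10). Of the 37 synthetase genes, 4 (10.8%) held a site, against 31.0% of the 13495 tested genes with a 3′UTR. The median 3′UTR was 527 bases in the synthetase genes and 1199 bases in the tested genes, so that the synthetase genes offered less sequence to match. The sites are in *Sars* at chr3:108426078-108426107 on the minus strand, in *Mars2* at chr1:55243041-55243070, chr1:55245245-55245274 and chr1:55245995-55246024 on the plus strand, in *Iars2* at chr1:185285028-185285057 on the minus strand and in *Wars2* at chr3:99218357-99218386 on the plus strand. Each is shown 5′ to 3′ on the strand of its gene, with the bases that match the seed site in capitals.
Sars, 7mer-m8: tcaggaactccCACTGTGtcctaatagctg
Mars2, 7mer-m8: ggacaggactaCACTGTGggtttgatatct
Mars2, 7mer-A1: ttactagaggaACTGTGAaagcattcataa
Mars2, 8mer: tattaggaaacCACTGTGAtttcagatgga
Iars2, 7mer-A1: atggtacacgtACTGTGAgcaaccatgacc
Wars2, 7mer-A1: ctcaacgttgtACTGTGActtacacacaca
Only *Mars2* held more than 1 site, in an annotated 3′UTR of 9470 bases. A match of letters is a description and not a measured binding site.

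Several cytosolic synthetase genes are known targets of ATF4, the transcription factor of the amino acid response, and its usual site was therefore searched in the promoters. The motif TGATGNAAN, where N is any base, was searched on both strands of the window from 250 bases before to 50 bases after each start in the RefSeq promoter table of GRCm38. A promoter was listed for 27 of the 37 synthetase genes, and 5 of these (18.5%) held the motif, against 2.81% of the 11250 tested genes with a promoter. All 5 are among the 13 cytosolic or dual genes with a promoter (38.5%), and 0 of 14 mitochondrial genes held it. The window nearest the start is shown for each gene, on the strand of its gene with the motif or its reverse complement in capitals: *Iars* at chr13:49682126-49682155, *Yars* at chr4:129189896-129189925, *Tars* at chr15:11399655-11399684 (minus strand), *Aars* at chr8:111033840-111033869, and *Gars* at chr6:55037960-55037989.
Iars: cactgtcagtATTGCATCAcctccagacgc
Yars: cgagctcagcTGATGCAACccgacgggact
Tars: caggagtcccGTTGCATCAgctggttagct
Aars: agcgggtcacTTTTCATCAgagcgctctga
Gars: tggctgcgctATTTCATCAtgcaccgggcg
These 5 genes did not move alike in the comparison below, where log2 fold changes were −0.24 for *Yars*, −0.01 for *Iars*, 0.11 for *Tars*, 0.23 for *Aars* and 0.35 for *Gars*, and only *Gars* passed the test.

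The synthetase genes were compared between miR-128OE and Ctrl hearts to ask whether the enzymes of cytosolic and of mitochondrial translation differed with miR-128 overexpression, and whether they did so together. All 37 genes passed the filter on low counts and were tested. Each gene was tested by the quasi-likelihood test of edgeR, with Benjamini-Hochberg adjustment of the p-values across all 14266 tested genes. Of the 37 genes, 11 (29.7%) had an adjusted p under 0.05, with 6 higher and 5 lower in miR-128OE hearts. The background was 31.5% of all tested genes called, with 16.5% higher and 15.0% lower, against 16.2% and 13.5% of the synthetase genes. The share of synthetase genes called was thus near that of all genes and is no result about the family. The miR-128OE libraries lay above both Ctrl libraries for 16 genes (43.2%, against 33.7% of all tested genes), below both for 10 genes (27.0%, against 34.4%), and overlapped them for 11. The median of the absolute log2 fold change was 0.23 in the family and 0.30 over all tested genes. When the libraries were scaled by total counts, which moved the median of all genes from −0.01 to −0.11 on the log2 scale, 3 synthetase genes were called higher and 8 lower, and over all tested genes the share of calls that were higher went from 52.3% to 35.3%. Without the miR-128OE library WH9, 0 of the 37 genes were called by edgeR's quasi-likelihood test (10.7% of all genes called), and without WH10 only *Cars* and *Fars2* were (15.6%).

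**Figure D1:**
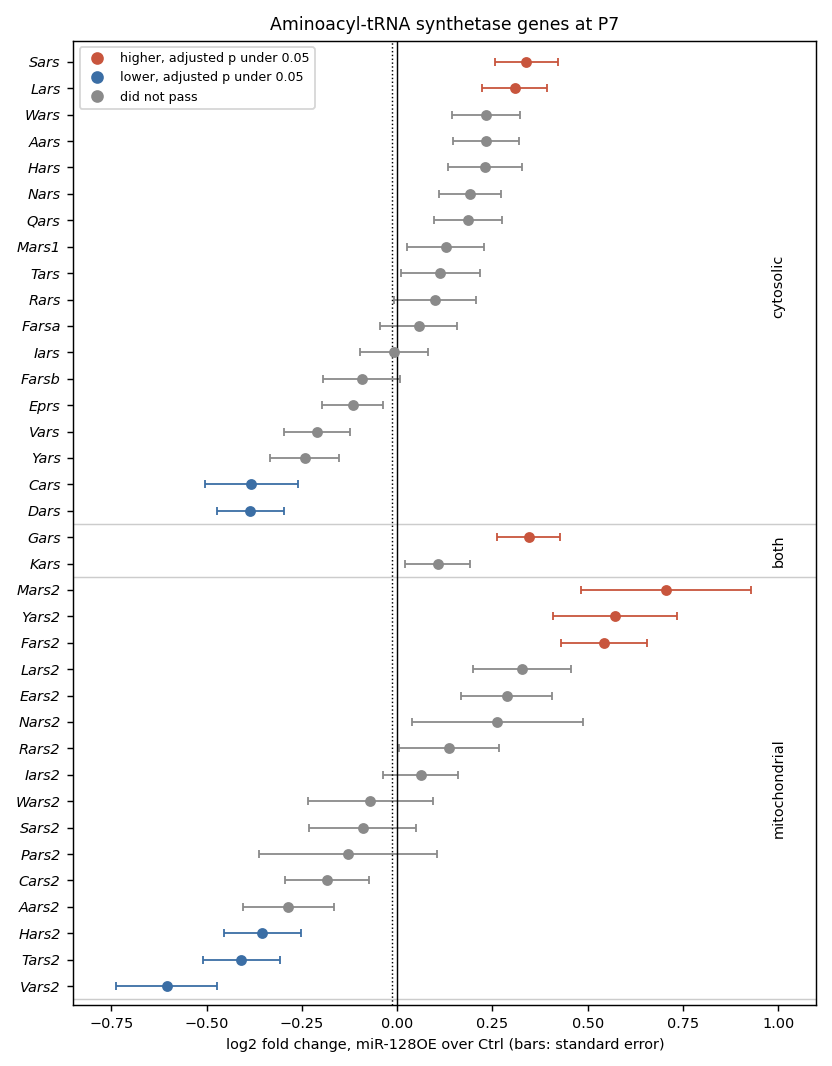
Log2 fold change of 36 of the 37 synthetase genes in miR-128OE over Ctrl hearts, with standard errors as bars, grouped by compartment, and with the dotted line at the median of all tested genes (−0.01). The cytosolic genes ran from −0.39 to 0.34 and the mitochondrial genes from −0.60 to 0.71; with scaling by total counts, *Farsa*, *Rars* and *Iars2* also lay below 0.

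Among the 18 cytosolic genes, 2 rose, 2 fell and 14 did not pass the test, with a median log2 fold change of 0.11. *Dars*, which charges aspartate, had 734 and 705 normalized counts in Ctrl and 566 and 537 in miR-128OE hearts. *Cars*, which charges cysteine, had 541 and 520 against 361 and 452. In both genes each miR-128OE library lay below each Ctrl library, with a wider gap between the miR-128OE libraries for *Cars*. *Dars* fell by 0.39 on the log2 scale (SE 0.09, edgeR adjusted p = 0.0103). *Cars* fell by 0.38 (SE 0.12, edgeR adjusted p = 0.0384), and it was not called by the DESeq2 test, with the offset for GC content and length, or without WH7. Without WH9 its log2 fold change was −0.22.

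*Sars*, the seryl-tRNA synthetase with the 7mer-m8 site shown above, had 974 and 1022 normalized counts in Ctrl and 1302 and 1220 in miR-128OE hearts. *Lars*, the leucyl-tRNA synthetase that also senses leucine for mTORC1, had 648 and 691 against 822 and 834. For both genes the miR-128OE libraries were above the Ctrl libraries without overlap. *Sars* rose 1.26-fold (log2 fold change 0.34, SE 0.08, edgeR adjusted p = 0.0131). *Lars* rose 1.24-fold (log2 fold change 0.31, SE 0.09, edgeR adjusted p = 0.0225), and it was not called with scaling by total counts or by the DESeq2 test.

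Of the 14 cytosolic genes that did not pass, *Wars*, *Aars*, *Hars*, *Nars*, *Qars* and *Mars1* were above the Ctrl libraries in both miR-128OE libraries, with log2 fold changes of 0.13 to 0.23. *Wars* had 547 and 524 normalized counts in Ctrl and 632 and 629 in miR-128OE hearts (edgeR adjusted p = 0.0748), and *Aars* had 702 and 680 against 845 and 782 (edgeR adjusted p = 0.0685). *Nars*, for asparagine, had 1312 and 1446 against 1574 and 1569, and *Hars* had 519 and 492 against 622 and 567. None of these 4 genes passed the test. *Yars*, *Vars* and *Eprs* were below the Ctrl libraries in both miR-128OE libraries. *Yars* had 608 and 619 against 529 and 508 (log2 fold change −0.24, edgeR adjusted p = 0.0677), and *Vars* had 773 and 784 against 651 and 693 (log2 fold change −0.21, edgeR adjusted p = 0.0899). Both *Yars* and *Vars* were called lower when scaled by total counts or by upper quartiles. *Eprs*, which carries the enzymes for glutamate and proline in 1 chain, had 1966 and 1866 against 1711 and 1823. With the called genes included, 8 of the 18 cytosolic genes (44.4%) lay above both Ctrl libraries and 5 (27.8%) below. Over all tested genes the shares were 33.7% and 34.4%, and with so few genes the counts are no result about the class. The libraries of the groups overlapped for *Iars*, *Tars*, *Rars* and the subunits of the phenylalanine enzyme, *Farsa* and *Farsb*, whose log2 fold changes were 0.06 and −0.09. *Iars* had 617 and 644 against 616 and 637, which is a log2 fold change of −0.01 (SE 0.09).

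The multisynthetase complex holds 8 of these enzymes (*Eprs*, *Iars*, *Lars*, *Mars1*, *Qars*, *Rars*, *Kars* and *Dars*). Of its genes, *Lars* rose, *Dars* fell and 6 did not pass, with log2 fold changes from −0.39 to 0.31 and a median of 0.10. The share called was 25%, against 31.5% of all tested genes, and is no result about the complex. The 11 cytosolic enzymes outside the complex had a median of 0.11, with *Sars* higher and *Cars* lower. The scaffold proteins of the complex are encoded by *Aimp1*, *Aimp2* and *Eef1e1*, of which the last gives AIMP3. *Eef1e1* had 110 and 116 normalized counts in Ctrl and 185 and 176 in miR-128OE hearts. *Aimp1* had 645 and 664 against 786 and 796, and *Aimp2* had 367 and 352 against 405 and 450. All 3 were higher in each miR-128OE library than in each Ctrl library, as were 33.7% of all tested genes. By the test below, 16.5% of all tested genes were called higher, and 3 genes are too few for a result about the scaffold. By the test, *Eef1e1* rose 1.60-fold (log2 fold change 0.68, SE 0.16, edgeR adjusted p = 0.00968) and *Aimp1* rose 1.21-fold (log2 fold change 0.27, SE 0.08, edgeR adjusted p = 0.0334), while *Aimp2* had a log2 fold change of 0.25 (SE 0.11, edgeR adjusted p = 0.109).

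*Gars* and *Kars* supply glycyl- and lysyl-tRNA synthetase to both compartments from 1 gene each. *Gars* had 1114 and 1025 normalized counts in Ctrl and 1380 and 1342 in miR-128OE hearts, without overlap. It rose 1.27-fold (log2 fold change 0.35, SE 0.08, edgeR adjusted p = 0.0119). *Kars* had 988 and 984 against 1112 and 1011, which is a log2 fold change of 0.11 (SE 0.09, edgeR adjusted p = 0.371).

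Among the 17 mitochondrial genes, 3 rose, 3 fell and 11 did not pass the test, with a median log2 fold change of 0.03. *Fars2*, which charges phenylalanine, had 282 and 293 normalized counts in Ctrl and 439 and 398 in miR-128OE hearts. *Yars2*, for tyrosine, had 110 and 131 against 181 and 174. *Mars2*, for methionine, had 55.8 and 65.0 against 107 and 89.2. In all 3 genes both miR-128OE libraries stood above both Ctrl libraries, and *Mars2* had the fewest normalized counts of any synthetase gene in the Ctrl libraries. *Fars2* rose 1.46-fold (log2 fold change 0.54, SE 0.11, edgeR adjusted p = 0.00637). *Yars2* rose 1.49-fold (log2 fold change 0.57, SE 0.16, edgeR adjusted p = 0.025). *Mars2*, which holds the 3 seed sites printed above, rose 1.63-fold (log2 fold change 0.71, SE 0.22, edgeR adjusted p = 0.0379). *Yars2* and *Mars2* were not called with scaling by total counts, by the DESeq2 test or without WH7.

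*Vars2*, the mitochondrial valyl-tRNA synthetase, had 350 and 437 normalized counts in Ctrl and 257 and 257 in miR-128OE hearts. *Tars2*, for threonine, had 544 and 604 against 442 and 421, and *Hars2*, for histidine, had 454 and 466 against 362 and 357. Both miR-128OE libraries were below both Ctrl libraries in these 3 genes, and for *Vars2* the Ctrl libraries were far apart. *Vars2* fell by 0.60 on the log2 scale (SE 0.13, edgeR adjusted p = 0.00829), *Tars2* by 0.41 (SE 0.10, edgeR adjusted p = 0.0137) and *Hars2* by 0.35 (SE 0.10, edgeR adjusted p = 0.0254). *Hars2* was not called by the DESeq2 test. None of the 5 lower synthetase genes held a match to the seed in the 3′UTR searched, and *Sars* and *Mars2*, which rose, did. Since only 10.8% of the synthetase genes held a site, so few genes give no result about the sites, and their part was not tested. *Iars2* and *Wars2*, with 1 site each, had log2 fold changes of 0.06 and −0.07 and did not pass.

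**Figure D2:**
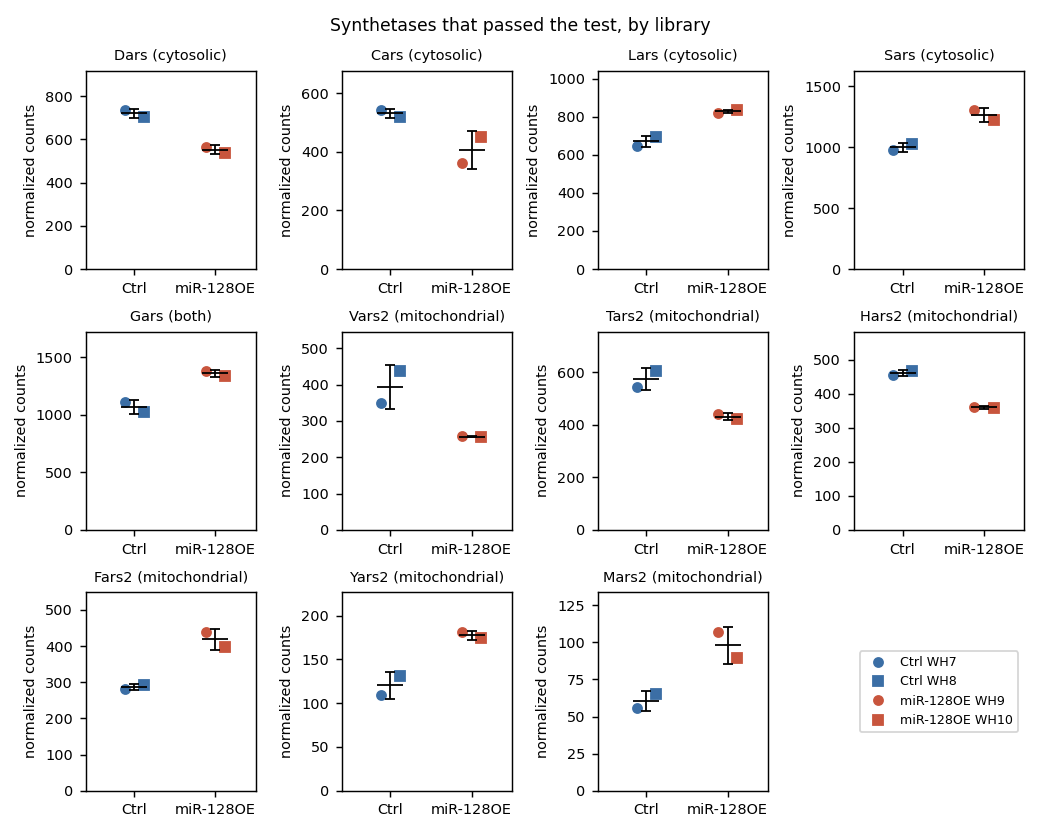
Normalized counts of the 11 synthetase genes that passed the test in each of the 4 libraries, with the mean as a horizontal line and the SD of 2 libraries as bars; each y axis starts at 0. In all 11 genes the miR-128OE libraries and the Ctrl libraries do not overlap, with *Vars2* at 257 and 257 in miR-128OE against 350 and 437 in Ctrl, and *Mars2* at 107 and 89.2 against 55.8 and 65.0. The genes were chosen by the test on these same libraries, so that their separation is no separate result. Of all tested genes, 33.7% lay above and 34.4% below without overlap.

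Of the 11 mitochondrial genes that did not pass, *Lars2*, *Ears2* and *Rars2* were above both Ctrl libraries and *Aars2* and *Cars2* below them in both miR-128OE libraries. With the called genes included, 6 of the 17 mitochondrial genes (35.3%) lay above and 5 (29.4%) below. These shares stand beside 33.7% and 34.4% of all tested genes and are no result about the class. *Ears2*, for glutamate, had 245 and 263 normalized counts in Ctrl and 298 and 320 in miR-128OE hearts (log2 fold change 0.29, edgeR adjusted p = 0.0963). *Aars2*, for alanine, had 341 and 399 against 298 and 305 (log2 fold change −0.29, edgeR adjusted p = 0.098). *Aars2* was called lower with total counts and without WH7, and without WH8 its log2 fold change was −0.17. The groups overlapped for 6 genes, among them *Nars2*, *Iars2*, *Wars2*, *Sars2* and *Pars2*, whose log2 fold changes ran from −0.13 to 0.26. *Nars2*, for asparagine, had 75.0 and 110 normalized counts in Ctrl and 116 and 103 in miR-128OE hearts, so that its Ctrl libraries differed more than the groups did. *Iars2*, for isoleucine, had 592 and 636 against 678 and 602. The fold changes of mitochondrial genes had an SD of 0.37 across genes, against 0.23 for cytosolic genes and 0.61 for all tested genes, and apart from *Lars2* the mitochondrial genes also had lower counts per kilobase by the median level given further on. The medians of the mitochondrial and cytosolic genes differed by −0.07 on the log2 scale, and this difference ran from −0.20 without WH7 to 0.08 without WH8. Across the mitochondrial genes the fold change had a Spearman correlation of −0.46 with the GC content of the longest annotated transcript (17 genes in the same 4 libraries). Across the 18 cytosolic genes it was 0.20. With an offset for GC content and length, 8 synthetase genes were called higher and 4 lower.

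For 16 amino acids, the mitochondrial enzyme was set against its cytosolic counterpart within each library, on normalized counts per kilobase of mRNA. This gave 17 pairs, since *Fars2* was paired with *Farsa* and with *Farsb*, and *Eprs* with *Pars2* and with *Ears2*. With 2 libraries a group, an exact permutation test cannot give a two-sided p below 0.333, so that the pairs are described without a test. The ratio was higher in both miR-128OE libraries for 6 pairs, lower in both for 6, and overlapped between the groups for 5. Of all tested genes taken singly, 33.7% lay above the Ctrl libraries without overlap and 34.4% below. The members of a pair had fold changes of opposite sign in 9 pairs and of the same sign in 8, and in 0 pairs did both members pass the test. The signs of *Iars*, *Eprs*, *Farsa*, *Rars*, *Iars2*, *Sars2*, *Wars2* and *Nars2* turned under other settings. These counts are no result about the pairs as a set.

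For tyrosine, the ratio of *Yars2* to *Yars* was 0.187 and 0.220 in Ctrl and 0.355 and 0.355 in miR-128OE hearts. The ratio of *Fars2* to *Farsb* was 0.539 and 0.511 against 0.894 and 0.748, and that to *Farsa* was 0.498 and 0.563 against 0.751 and 0.726. These ratios were higher in both miR-128OE libraries. The log2 ratio changed by 0.81 for tyrosine, where *Yars2* rose and *Yars* had a log2 fold change of −0.24, and by 0.64 and 0.48 for the phenylalanine pairs. The standard errors of the difference, which combine those of both genes as if independent, were 0.19 for tyrosine and 0.15 for both phenylalanine pairs. The ratio of *Ears2* to *Eprs* was 0.299 and 0.338 against 0.418 and 0.420, and the pairs of methionine and cysteine also stood higher, with log2 ratios changed by 0.57 and 0.20.

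For histidine, the ratio of *Hars2* to *Hars* was 0.522 and 0.565 in Ctrl and 0.347 and 0.376 in miR-128OE hearts. The ratio of *Tars2* to *Tars* was 1.28 and 1.56 against 0.946 and 1.01, and that of *Aars2* to *Aars* was 0.834 and 1.01 against 0.606 and 0.670. In each of these pairs the Ctrl libraries were higher without overlap. The log2 ratio fell by 0.59 for histidine (SE 0.14), by 0.53 for threonine (SE 0.15) and by 0.52 for alanine (SE 0.15). *Hars* and *Hars2* lie head to head and share 195 exonic bases on opposite strands, so that without strand their reads there cannot be told apart. The ratio also stood lower for serine, where *Sars* rose and *Sars2* overlapped between the groups (log2 ratio −0.43), for valine (−0.39) and for tryptophan (−0.31). For proline, leucine, arginine, isoleucine and asparagine the ratios overlapped, with log2 ratios changed by −0.03 to 0.07.

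**Figure D3:**
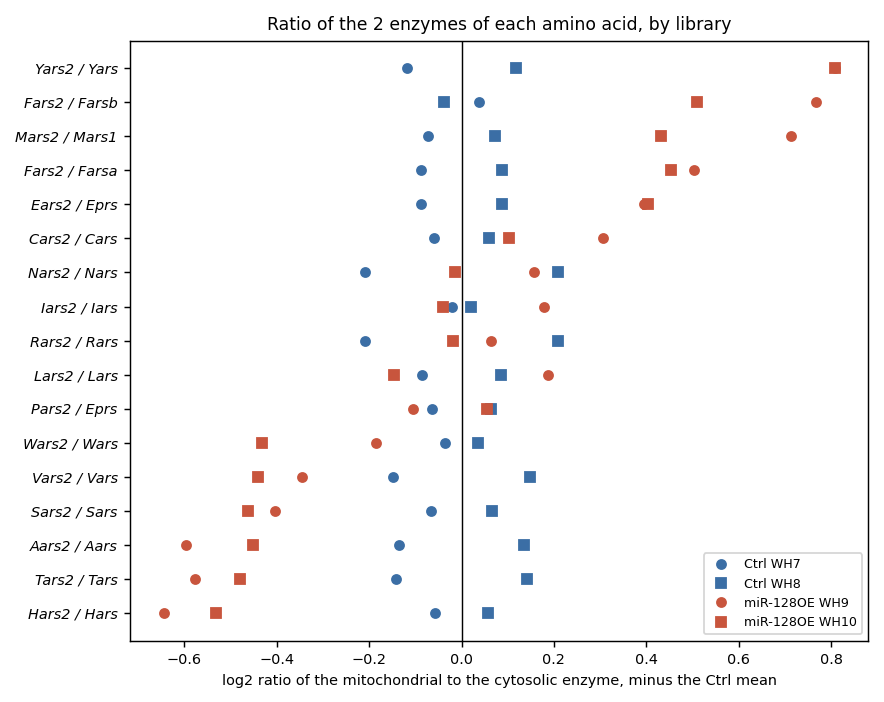
Log2 ratio of the mitochondrial to the cytosolic enzyme of each amino acid, by library, minus the mean of the Ctrl libraries; circles and squares are the libraries of each group. The ratio was higher in both miR-128OE libraries for 6 pairs, with tyrosine at 0.81, and lower in both for 6, with histidine at −0.59.

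Levels were compared between genes per kilobase of the longest protein-coding transcript. In Ctrl hearts the median level was 214 normalized counts per kilobase for the cytosolic genes, from 120 for *Aars* to 502 for *Nars*, and 450 for *Kars* and 449 for *Gars*. For the mitochondrial genes it was 112, or 111 (5.35 to 201) without *Lars2*. In miR-128OE hearts the medians were 232 for cytosolic genes, 528 for the dual genes and 99.0 for mitochondrial genes without *Lars2*. *Tars2*, *Cars2* and *Lars2* were above their cytosolic counterparts in both Ctrl libraries, *Aars2* was above *Aars* in WH8 alone, and the mitochondrial member was lower in all other pairs. The value of *Mars2*, 5.35 in Ctrl and 8.68 in miR-128OE hearts, depends on an annotated mRNA of 11294 bases, most of it 3′UTR.

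*Lars2*, which charges leucine in mitochondria, stood apart with 94949 and 73678 counts in the Ctrl libraries against 134173 and 127152 in the miR-128OE libraries. These were 0.767% to 1.08% of all counts and 81.8% to 86.8% of the counts of all 37 genes. Normalized counts were 86829 and 104133 in Ctrl and 132843 and 106946 in miR-128OE hearts, so that WH10 was barely above WH8. The log2 fold change was 0.33 (SE 0.13, edgeR adjusted p = 0.0797), and *Lars2* was called higher by the DESeq2 test and by edgeR without a filter on low counts, with the GC and length offset or without WH8. In its coding transcript of 3894 bases, the 3′UTR (from base 2909) matched *AA474408* on chromosome 7 over 97 bases at 94.8% identity and *Gm15564* on chromosome 16 over 72 bases at 98.6% identity, and neither gene is in the table of counts. Shorter and weaker matches to *Ifitm10* (70 bases at 82.9%) and *Phka1* (51 bases at 88.2%) are to genes in the table. How reads that fit several places were counted is not given in the sources used here, so that the count of *Lars2* is uncertain. The entry with the most counts, which was matched to no symbol, took 2.70% to 3.71% of all counts. The count of *Lars2* was 0.245 to 0.328 times that of this entry, and whether the 2 share reads was not tested. Summed over genes, the ratio of mitochondrial to cytosolic levels per kilobase was 5.65 and 6.76 in Ctrl and 8.22 and 6.66 in miR-128OE hearts with *Lars2*, and 0.338 and 0.373 against 0.341 and 0.334 without it. The groups overlapped with *Lars2*, and 1 gene decided the size of the ratio.

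**Figure D4:**
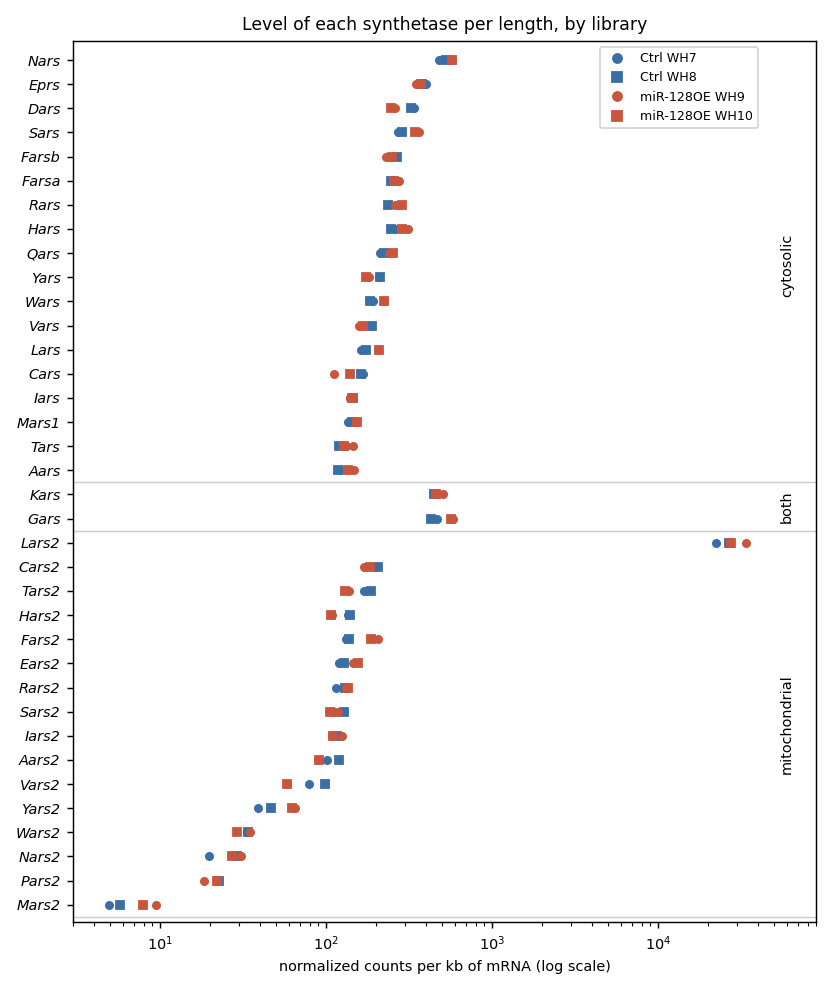
Normalized counts per kilobase of mRNA for 36 of the 37 synthetase genes in each library, on a log axis, ordered by Ctrl level within each compartment. *Lars2* lies at 24520 in Ctrl, while the other mitochondrial genes lie between 5.35 and 201 and the cytosolic genes between 120 and 502.

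Other genes share exons with their neighbours, which matters because the handling of strand is not given in the sources used here. *Iars2* shares 2034 exonic bases with *Rab3gap2* (22.9% of its exonic length), and *Aars* shares 1326 bases with *Exosc6* on the same strand (14.3%). Among the genes that passed the test, *Fars2* shares 501 bases with *Nrn1* (8.72%), *Vars2* shares 465 with an antisense gene (8.52%) and *Cars* shares 211 with a pseudogene (3.21%). The values of these genes are therefore uncertain. The shares are of exonic bases, and the share of reads concerned was not measured.

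The factors that work beside the mitochondrial synthetases were examined next. Glutaminyl-tRNA is made in mitochondria by amidation, through the subunits of *Qrsl1*, *Gatb* and *Gatc*, and *Mtfmt* formylates the initiator methionyl-tRNA. In this list of 4 genes 0 passed edgeR's quasi-likelihood test, with log2 fold changes of 0.26 for *Qrsl1*, 0.04 for *Gatb*, −0.01 for *Gatc* and −0.15 for *Mtfmt*. Of 10 mitochondrial translation factors 3 rose, 1 fell and 6 did not pass, with a median log2 fold change of 0.10 against −0.01 over all tested genes. Here and in the lists that follow, the counts stand beside the 16.5% of all tested genes called higher and the 15.0% called lower, and with so few genes in a list they are no result about it. *Tufm*, the elongation factor that brings charged tRNA to the mitochondrial ribosome, had 1472 and 1483 normalized counts in Ctrl and 2089 and 1953 in miR-128OE hearts. It rose 1.37-fold (log2 fold change 0.45, SE 0.08, edgeR adjusted p = 0.00259). Its exchange factor *Tsfm* and the translocation factor *Gfm1* rose by log2 fold changes of 0.48 and 0.39. *Mtif2*, the initiation factor, had 856 and 890 against 632 and 685 and fell by 0.40 on the log2 scale (SE 0.09, edgeR adjusted p = 0.0077). Of 12 genes of mitochondrial tRNA maturation only *Hsd17b10*, a subunit of mitochondrial RNase P, passed, with a log2 fold change of 0.42 (edgeR adjusted p = 0.00402), and the median of the list was 0.02. *Trmt5*, *Cdk5rap1* and *Trmt10c* followed by p and had log2 fold changes of 0.42, −0.36 and 0.24.

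In the cytosol, *Eef1a2*, the muscle and neuron form of the elongation factor that carries charged tRNA, had 1626 and 1740 normalized counts in Ctrl and 3782 and 3391 in miR-128OE hearts. It rose 2.13-fold (log2 fold change 1.09, SE 0.09, edgeR adjusted p = 6.46e-05), while *Eef1a1* had a log2 fold change of −0.06. *Eef2*, the translocation factor, rose 1.24-fold (log2 fold change 0.31, edgeR adjusted p = 0.026), and *Eef1b2*, *Eef1d* and *Eef1g*, which recharge the carrier with GTP, did not pass (−0.09 to 0.07). Of 5 synthetase-like and proofreading genes, *Aarsd1*, which clears mischarged tRNA of alanine, had 539 and 500 normalized counts against 401 and 397. *Aarsd1* fell by 0.38 on the log2 scale (SE 0.10, edgeR adjusted p = 0.0171). The log2 fold changes of *Prorsd1*, *Dtd1*, *Dtd2* and *Tarsl2* were 0.37, 0.46, 0.30 and 0.02, and none of these passed.

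Transcription factors known to act on synthetase genes were counted as well. Of 20 genes of the amino acid response, 18 were tested (*Chac1* and *Fgf21* were too low), and 1 rose, 1 fell and 16 did not pass, against 31.5% of all tested genes called, with a median log2 fold change of 0.00. *Atf4* itself had 2035 and 2083 normalized counts in Ctrl and 1849 and 1811 in miR-128OE hearts (log2 fold change −0.17, edgeR adjusted p = 0.115). *Slc7a1*, a transporter of cationic amino acids, had 447 and 464 against 756 and 733 and rose 1.63-fold (log2 fold change 0.71, edgeR adjusted p = 0.00056). *Psat1*, of serine synthesis, had 275 and 297 against 192 and 141 and fell by 0.78 on the log2 scale (edgeR adjusted p = 0.00654). *Slc7a5*, a transporter of large neutral amino acids, had 134 and 129 against 177 and 172 (log2 fold change 0.40, edgeR adjusted p = 0.0672). *Ddit3*, a transcription factor of the same response whose exons overlap *Mars1*, had 360 and 389 against 319 and 291 (log2 fold change −0.29, edgeR adjusted p = 0.078), and neither gene passed. Of the 4 tested genes of the Myc family (*Mycl* was too low), *Max* rose (log2 fold change 0.38, edgeR adjusted p = 0.0114), and *Myc* had 101 and 103 against 104 and 100. *Mycn* and *Mnt* had log2 fold changes of −0.31 and −0.33 and did not pass.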

How the data were processed

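RNA-seq of P7 hearts was analysed from the raw counts per gene that the authors deposited. By the study's methods, reads of low quality were dropped, TopHat2 was used for alignment to mm10, and reads on known genes were counted with Bioconductor packages. The submitters' processing notes also name bcl2fastq and edgeR. The gene models, the handling of strand and the treatment of reads with several matches are not given in the sources used here. Library totals were 8096870 to 14359838 counts, and with 2 libraries per group small changes can be missed.

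Genes were kept by filterByExpr at its default settings, scaled by TMM and tested with edgeR 4.0.16 in R 4.3.3 (quasi-likelihood, Benjamini-Hochberg over 14266 genes, threshold 0.05). Counts scaled by TMM to the mean effective size of the libraries are called normalized counts, and the SE is the log2 fold change over the square root of F. The scripts were tested on simulated data. Entrez identifiers were matched to symbols for 24374 of 24454 genes. The members, classes and lists were chosen with earlier results of these data known, and 36 members are described singly, while 1 enters only the counts, sums and medians of the family and is not reported here. Related lists of up to 6 genes are named whole, and of longer lists the called genes and the 4 with the lowest p, while *Atf4* was added after its values were seen. Alternatives were DESeq2 1.42.0 and other scalings, filters, offsets and thresholds, and each library left out.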

Additional observations from a re-analysis of the deposited data

How the results depend on the processing

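DESeq2 size factors, edgeR's exact test and autosomal genes alone changed no call and no direction of the 36 genes given singly, and the 11 called genes kept their direction under all alternatives run. The cytosolic genes called lower numbered 4 with upper-quartile factors, 4 with total counts, 1 with the DESeq2 test, 1 with the offset for GC content and length, and 0 at an adjusted p under 0.01. Those called higher numbered 1 with total counts, 1 with the DESeq2 test and 0 at 0.01. The mitochondrial genes called higher numbered 1 with total counts and 1 at 0.01, and those called lower numbered 1 at 0.01. The median log2 fold change of the cytosolic genes was 0.060 with upper-quartile factors and 0.0061 with total counts, and that of the mitochondrial genes was −0.065 with total counts. Without *Lars2*, an alternative added after seeing the data, the log2 change of the mitochondrial to cytosolic ratio was −0.076. Leaving out 1 library at a time, the cytosolic genes called higher ranged from 0 to 3 and lower from 0 to 2, and the mitochondrial genes called higher ranged from 0 to 4 and lower from 0 to 4. The medians ranged from 0.040 to 0.127 for cytosolic and from −0.077 to 0.115 for mitochondrial genes, their difference from −0.199 to 0.075, and the log2 change of the ratio with *Lars2* from 0.102 to 0.405. Leaving out WH9 or WH10 removed most calls, and the lone library left was assumed to vary like the other group.

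Small fold changes of these genes turned sign, none of them called. The log2 fold change became 0.074 for *Eprs* and 0.028 for *Iars* with the GC and length offset, and 0.0025 for *Iars* with no filter. With total counts it became −0.043 for *Farsa*, −0.00040 for *Rars* and −0.038 for *Iars2*. Leaving out 1 library at a time gave −0.040 to 0.028 for *Iars*, −0.197 to 0.0085 for *Sars2*, −0.186 to 0.071 for *Wars2*, −0.012 to 0.163 for *Iars2* and −0.017 to 0.542 for *Nars2*. The causes were not tested. No paired analysis was possible because the labels give no replicate numbers that the groups share.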
